A study of Mus musculus with 32 samples.

Results

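The interferon-stimulated genes examined here are 30 genes that cells switch on after an interferon signal. They were taken by symbol from a raw count table of 50686 Ensembl genes, and all 30 were found there and were among the 15505 genes with enough reads to be tested. The table comes from interscapular brown adipose tissue (iBAT), a thermogenic fat depot of the upper back. It was taken from non-fasted male C57BL/6J mice of 10 weeks that ate chow and were housed at a mildly cold room temperature, under 12 h of light and 12 h of dark. Mice were killed at 8 Zeitgeber times (ZT, hours after lights on) spaced 3 h apart, with 4 mice and 1 RNA library per mouse at each, so that there were 32 libraries. No mouse carried an engineered allele or received a treatment or an infection, and ZT was the only factor that differed by design. Lane 2 of the sequencer held ZT0 to ZT6, lane 3 held ZT9 to ZT15 and lane 4 held the last pair of ZT, so that time of day and lane cannot be told apart between lanes.

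Interferons are secreted signals that warn cells of viruses and other intracellular pathogens. Type I interferons act mainly through a complex that includes STAT2 and IRF9 and binds the interferon-stimulated response element, while interferon gamma acts mainly through the gamma-activated site and through IRF1. Sensors of foreign RNA, transcription factors that amplify the signal, effectors that block viruses and GTPases that attack the vacuoles of pathogens are all among the induced genes, and many are also made at a low level in tissue of uninfected animals.

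Promoter sequence was available from RefSeq (GRCm38.p6, 250 bases before to 50 bases after each start) for 23 of the 30 genes. The response element was searched as 2 copies of GAAA with any 2 bases between them and the gamma-activated site as TTC and GAA with any 3 bases between them, each on both strands, and overlapping matches were counted separately. The response element was present in 14 of the 23 genes, against 3.99% of all 27025 genes with a promoter, and in 5 of 5 GTPase genes, 6 of 11 effector genes, 2 of 2 sensor genes and 1 of 4 factor genes. The gamma-activated site was present in 6 of the 23, against 9.55% of all genes. A match only says that these letters occur in the window. Isg15, Ifit1, Ifit3 and Gbp3 each held more than 1 match to the response element, and 1 match of each is in capitals. For Isg15 it is the match nearest to the start, and the other matches lie on its 5′ side. For Ifit1, Ifit3 and Gbp3 it is the match farthest from the start. The windows that follow are those of genes whose values carry the results, with the matched motif in capitals, read 5′ to 3′ on the strand of the gene. The first is a response element match of Isg15 (chr4:156200860-156200899, minus strand), the next those of Ifit1 (chr19:34640770-34640809, plus strand), Ifit3 (chr19:34583358-34583397, plus strand), Gbp3 (chr3:142559984-142560023, plus strand), Igtp (chr11:58199507-58199546, plus strand) and Stat2 (chr10:128270261-128270300, plus strand), and the last is a gamma-activated site match of Irf1 (chr11:53769909-53769947, plus strand). All of these windows lie upstream of the annotated gene.
Isg15: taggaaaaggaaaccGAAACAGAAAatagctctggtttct
Ifit1: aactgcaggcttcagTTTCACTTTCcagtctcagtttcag
Ifit3: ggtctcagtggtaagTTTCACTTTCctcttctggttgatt
Gbp3: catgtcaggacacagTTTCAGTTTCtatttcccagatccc
Igtp: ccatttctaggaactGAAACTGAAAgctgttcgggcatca
Stat2: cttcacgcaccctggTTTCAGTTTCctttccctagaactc
Irf1: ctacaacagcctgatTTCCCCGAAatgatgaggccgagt

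Several of the genes sit side by side. On GRCm38, Ifit2 (chr19:34550694-34576419), Ifit3 (chr19:34583531-34588731) and Ifit1 (chr19:34640871-34650009) lie in a row on the plus strand, as do Gbp7 (chr3:142530342-142550149), Gbp3 (chr3:142560026-142573209) and Gbp2 (chr3:142620602-142638008). Rsad2 (chr12:26442746-26456452, minus strand) and Cmpk2 (chr12:26469204-26479837, plus strand) are neighbours, and Mx1 and Mx2 both lie on chromosome 16. Neighbours of this kind can share sequence. Of the 100-base stretches of Oas1a transcripts, 40.9% also occurred in Oas1g, and of those of Ifit3 31.7% also occurred in Ifit3b, so that reads of these pairs could be split or lost in counting. The share was 10.0% for Gbp7, 9.28% for Rtp4 and 5.16% for Igtp, and it was under 4% for each of the others. Tap1 has Psmb9 on its opposite strand and Irf7 has Phrf1, and the sources used here do not say if reads were assigned by strand.

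Total counts per library ran from 16300770 to 18254659, a range too narrow to separate libraries by precision. Levels are given as CPM (read counts scaled to a common library size after TMM normalization), and n is 4 mice per ZT unless stated otherwise. The brown adipocyte gene Ucp1 averaged 2209 CPM over all libraries, and all 4 clock genes examined passed the test over ZT. Arntl ran from 34.4 ± 4.07 CPM (SD) at ZT0 to 1.15 ± 0.203 at ZT12, Dbp from 4.46 ± 0.802 at ZT0 to 171 ± 42.7 at ZT9 and Per2 from 6.64 ± 1.55 at ZT3 to 110 ± 13.0 at ZT15, so that ZT was visible in these libraries. Transcripts of skeletal muscle varied widely between libraries, from 1.34 to 5682 CPM summed over 8 markers. In whole tissue, more cells of a type and more RNA per cell cannot be told apart.

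All 30 genes were present in unchallenged iBAT, at mean levels from 0.964 CPM for Mx1 to 49.7 CPM for Gbp2. Per kilobase of exon, a scale on which genes can be compared, Bst2 was highest at 23.3 CPM per kb. It encodes tetherin, which holds budding virus particles on the cell surface. Gbp2 followed at 19.7, Igtp at 12.7, Gbp3 at 10.9 and Irf1 at 10.2 CPM per kb, so that 3 GTPases and a factor of the interferon gamma response followed it. Mx1, whose protein is truncated in most laboratory strains, was lowest at 0.255 CPM per kb, below Ifi44 at 0.574 and Mx2 at 0.589.

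The first question was whether these genes followed the time of day. Few passed a test of it. In edgeR's quasi-likelihood test over the 8 ZT, 3 of the 30 genes passed an adjusted p of 0.05, namely Ifi44, Oasl2 and Tap1, while 39.8% of all tested genes did. At an unadjusted p of 0.05 Irf1 and Cmpk2 joined them, 5 of 30 against 50.9% of all genes. The adjusted count was 7 without ZT12 mouse 4 (38.5% of all genes), where Irf1, Cmpk2, Parp14 and Stat2 were added. Without ZT3 mouse 3, ZT6 mouse 4 and ZT12 mouse 4, mice that are described further on and were chosen after seeing the data, it was 6 (34.2%), and the count for a 24 h cosine was 8 (31.6%). A 24 h cosine found 4 of 30 (Irf1, Ifi44, Oasl2 and Tap1) against 36.1% of all genes. JTK_CYCLE, the rank test for oscillation used in the study, found 5 of 30 at P under 0.05 (Irf1, Cmpk2, Ifi44, Gbp3 and Tap1) against 36.4%, and 3 of 30 (Irf1, Cmpk2 and Tap1) after adjustment over all genes, against 27.1%. With lane as a term beside the cosine, Irf1 alone remained, against 17.2% of all genes. The median amplitude of the cosine was 0.14 on the log2 scale for the 30 genes, as for all tested genes. A fitted amplitude is never negative and rises with the spread between mice, which was larger in the 30 genes (median SD 0.35, against 0.20). Equal medians therefore do not show an equal daily change.

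Irf1, the transcription factor at the head of many interferon gamma responses, was the only gene of the set called in every test of a rhythm, although not in the test over the 8 ZT, where its adjusted p was 0.0656. Its 4 mice at ZT0 gave 26.4, 42.3, 36.3 and 36.5 CPM, and those at ZT9 gave 38.7, 48.6, 47.4 and 47.2 CPM, so that the groups overlapped in 1 mouse on each side. The mean was 35.4 ± 6.61 CPM at ZT0, 45.5 ± 4.56 at ZT9 and 37.2 ± 0.669 at ZT15. The cosine put its peak at ZT7.9 ± 0.92 h (SE) with an amplitude of 0.20 ± 0.05 log2 units (edgeR adjusted p = 0.00555, and 0.0452 with lane in the fit). The call with lane in the fit ended with library size alone (adjusted p = 0.0887), with no filter (0.0672) and when any of 18 of the 32 libraries was left out, and over all 32 omissions the adjusted p ran from 0.0216 to 0.0986. It was kept without ZT0 mouse 2, ZT3 mouse 1, 3 or 4, ZT6 mouse 3, ZT9 mouse 1, any mouse of ZT12, ZT18 mouse 1 or 4, or ZT21 mouse 3 or 4.

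Tap1, a subunit of the transporter that loads peptides onto class I molecules, had its highest means at ZT3 and ZT6. Its mice gave 17.2, 22.5, 16.3 and 29.5 CPM at ZT0, then 34.9, 32.6, 29.8 and 39.2 CPM at ZT6 and 20.0, 17.0, 19.7 and 24.0 CPM at ZT18. At ZT3, where its mean was highest, the mice gave 27.9, 34.9, 47.1 and 27.2 CPM and overlapped those of ZT0. The cosine peaked at ZT6.3 ± 1.05 h with an amplitude of 0.34 ± 0.09 (edgeR adjusted p = 0.0181), and the test over ZT gave 0.0479. The call over ZT ended with library size alone (adjusted p = 0.0897) and when any of 22 of the 32 libraries was left out (0.00322 to 0.0857 over all 32 omissions). It was kept without ZT0 mouse 4, ZT3 mouse 1 or 4, any mouse of ZT12, ZT15 mouse 1, ZT18 mouse 4 or ZT21 mouse 3. With lane in the fit the adjusted p was 0.0578. At ZT12, 3 mice lay between 21.8 and 22.4 CPM and 1 at 58.5 CPM.

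Oasl2, an oligoadenylate synthase-like protein that acts on RNA sensing, had its highest mean at ZT3 and its lowest at ZT21. The mice at ZT3 gave 15.0, 10.4, 18.3 and 10.6 CPM and those at ZT21 gave 8.21, 7.06, 8.57 and 5.46 CPM. These ZT were picked as the extremes of 8 means and lay on different lanes, so that the gap between them is a description. The fitted peak was ZT4.9 ± 1.03 h with an amplitude of 0.30 ± 0.08 (edgeR adjusted p = 0.00618). Its call over ZT (adjusted p = 0.0226) ended with library size alone (0.0525) and without ZT3 mouse 1 or ZT3 mouse 3, with values up to 0.0763. Ifi44, an antiviral effector that dampens the interferon response, had the largest amplitude of the 30 genes, 0.38 ± 0.11, with a peak at ZT2.0 ± 1.07 h (edgeR adjusted p = 0.016). It fell from 4.90 ± 0.458 CPM at ZT0 to 2.54 ± 1.23 at ZT12. Neither gene passed with lane in the fit, where the adjusted p was 0.514 for Oasl2 and 0.525 for Ifi44.

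Neighbouring ZT on the same lane were compared next, since these steps do not cross lanes. None of the 30 genes passed in any of the 5 steps by edgeR. For ZT3 against ZT0 the count was 0 against 13.8% of all genes. At an unadjusted p of 0.05 it was 3 (Irf1, Oasl2 and Tap1) against 30.3%, and DESeq2 called 1 (Tap1) against 15.2%. For ZT6 against ZT3 edgeR called 0 against 2.08%, with 0 against 14.4% unadjusted and 0 against 2.92% by DESeq2. For ZT12 against ZT9 it called 0 against 0.0%, with 3 (Gbp2, Gbp3 and Igtp) against 6.75% unadjusted and 0 against 0.155% by DESeq2. In each of these 3 genes mouse 4 of ZT12 was the highest library. For Gbp2 it gave 146 CPM, while the other mice of ZT12 (37.7 to 45.4 CPM) lay inside the ZT9 range (35.7 to 49.6 CPM). For Gbp3 it gave 80.2 CPM, the others 34.1 to 38.4 CPM and ZT9 31.6 to 34.5 CPM. In ZT15 against ZT12 edgeR called 0 against 3.04%, with 2 (Parp14 and Tap1) against 16.9% unadjusted and 0 against 4.25% by DESeq2. In ZT21 against ZT18 it called 0 against 2.06%, with 0 against 15.0% unadjusted and 0 against 3.48% by DESeq2. Mice of the first 4 steps overlapped in all 30 genes, while 16.0%, 8.75%, 3.38% and 10.1% of all genes did not overlap. In the order of these 5 steps, 19, 15, 21, 16 and 7 of 30 genes had a positive fold, against 50.7%, 48.9%, 49.9%, 48.7% and 47.6% of all genes. The 30 genes moved together between mice, as described further on, so that these signs are not independent. The median fold in ZT21 against ZT18 was -0.19, against -0.01 over all genes on the log2 scale, and the groups of Mx2 and Ifit3 did not overlap there (2 of 30, against 13.0% of all genes). Over the 3 ZT of lane 2 alone edgeR called 0 of 30 against 13.3%, with Irf1 and Tap1 (2 against 32.2%) under an unadjusted 0.05. Over the 3 ZT of lane 3 it called 0 against 1.93%, with 0 against 16.0% unadjusted. DESeq2 was not run within lanes.

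ZT12 against ZT0, the onset of the active and of the inactive phase, gave 2 genes of 30, both lower at ZT12 (15.9% of all genes were called, 8.15% lower and 7.71% higher). At an unadjusted p of 0.05 the count was 8, against 30.1% of all genes. Ifi44 was 2.04, 1.8, 1.94 and 4.38 CPM at ZT12 and 4.30, 5.27, 5.24 and 4.78 CPM at ZT0, so that 3 mice lay below all mice of ZT0 and 1 lay among them. Its log2 fold change was -0.94 ± 0.28 (SE, edgeR adjusted p = 0.022). Oas2, an oligoadenylate synthase that starts the degradation of RNA, changed by -0.76 ± 0.23 (edgeR adjusted p = 0.0228), from 6.97 ± 1.35 to 4.11 ± 0.950 CPM. Cmpk2, a mitochondrial nucleotide kinase, was the only gene of the 30 whose groups did not overlap (16.3% of all genes did not), and it missed the threshold in edgeR with a log2 fold change of -0.51 ± 0.19 and an adjusted p of 0.0628. DESeq2 called 3 genes in this contrast, Cmpk2 beside Ifi44 and Oas2, against 16.7% of all genes. The edgeR calls of both Ifi44 and Oas2 ended without ZT0 mouse 2 or 3 or ZT12 mouse 1, 2 or 3, with adjusted p up to 0.0798 and 0.0706, and Ifi44 also missed in the fit of these ZT alone (0.0719). The samples lay on different lanes, and the mouse at 4.38 CPM for Ifi44 stood apart in most of the other genes too, as described next.

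**Figure D1:**
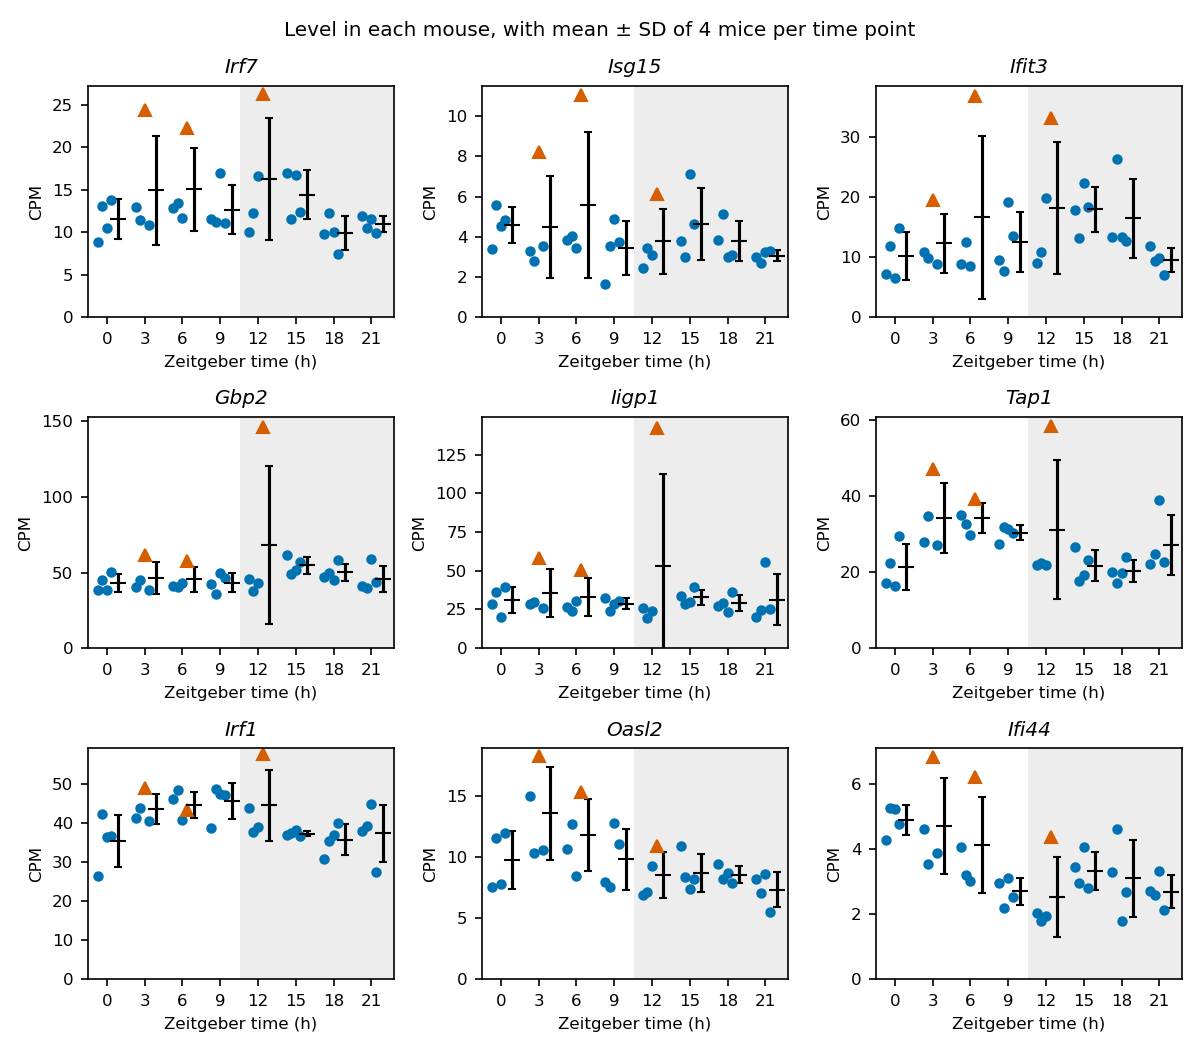
Level in CPM (vertical axes, from 0) of 9 interferon-stimulated genes at each Zeitgeber time (horizontal axes, grey for ZT12 to ZT21). Points are single mice, black bars the mean ± SD of 4 mice (the lower bar of Iigp1 at ZT12 goes below 0 and is not drawn there), and triangles mark mouse 3 of ZT3, mouse 4 of ZT6 and mouse 4 of ZT12. The triangles lie above the other 3 mice of their ZT in every panel except Irf1 at ZT6.

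Most of the variance of these genes lay between mice of the same ZT. The SD between mice of the same ZT had a median of 0.35 on the log2 scale over the 30 genes, from 0.20 to 0.74, against 0.20 over all tested genes, and 27 of 30 lay above that median. A median of 78.5% of the variance of the 30 genes lay within ZT, against 58.9% over all genes. edgeR compares each gene's biological variation with the trend for genes of its abundance, and 20 of 30 lay above it, against 15.5% of all genes. All 6 GTPase genes and 12 of 17 effectors were above the trend, and of the 2 sensors and 4 factors only Irf7 was. The sensors Ifih1 (MDA5) and Ddx58 (RIG-I), which recognise viral RNA in the cytosol, had an SD of 0.20 each, at the level of the median gene. Mx1 had the highest SD at 0.74, followed by Ifit1 at 0.62, Ifit3 at 0.62 and Iigp1 at 0.61.

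**Figure D2:**
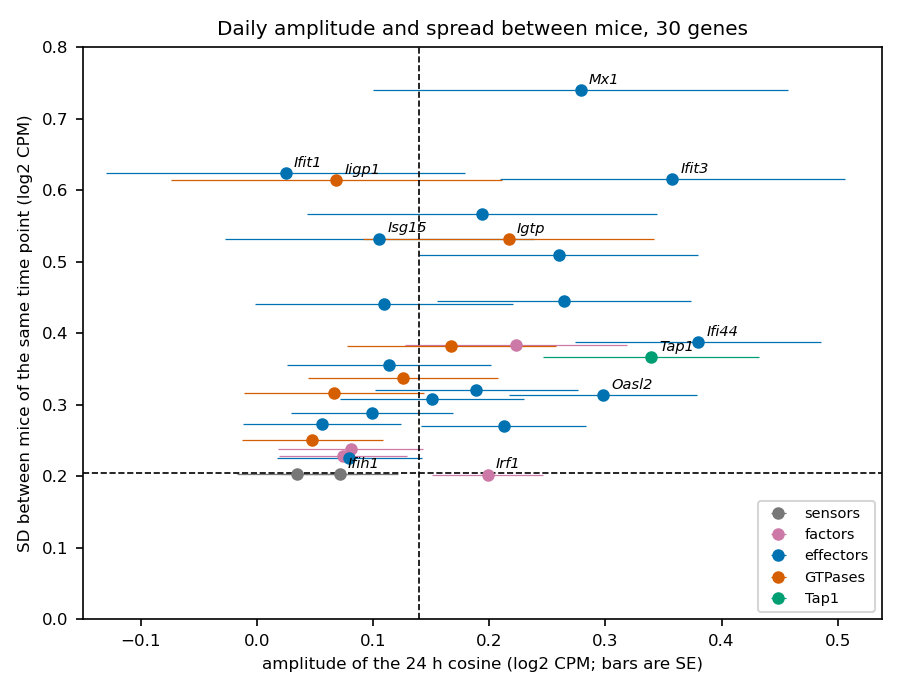
Amplitude of the 24 h cosine in log2 CPM (horizontal axis, bars are SE) against the SD between mice of the same Zeitgeber time in log2 CPM (vertical axis) for the 30 genes, coloured by role. Dashed lines are the medians of all 15505 tested genes, 0.14 for the amplitude and 0.20 for the SD, and 27 of the 30 genes lie above the horizontal line.

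Much of this spread came from single mice in which nearly the whole set was high together. These mice were singled out after their values were seen, and each is set against the 3 other mice of its own ZT as a description. Mouse 3 of ZT3 was the highest of 4 in 30 of 30 genes, while it was the highest for 23.9% of all genes. Mouse 4 of ZT6 was the highest in 29 of 30 (29.8% of all genes), with Irf1 the exception. Mouse 4 of ZT12 was the highest in 29 of 30 (26.0% of all genes), with Rsad2 the exception. The highest library of the whole series was one of these for 29 of the 30 genes, 9 in mouse 3 of ZT3, 10 in mouse 4 of ZT6 and 10 in mouse 4 of ZT12. Oas2 was highest in mouse 2 of ZT0. The total counts of these libraries were 17185287, 17120415 and 17474708, inside the range of the others.

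**Figure D3:**
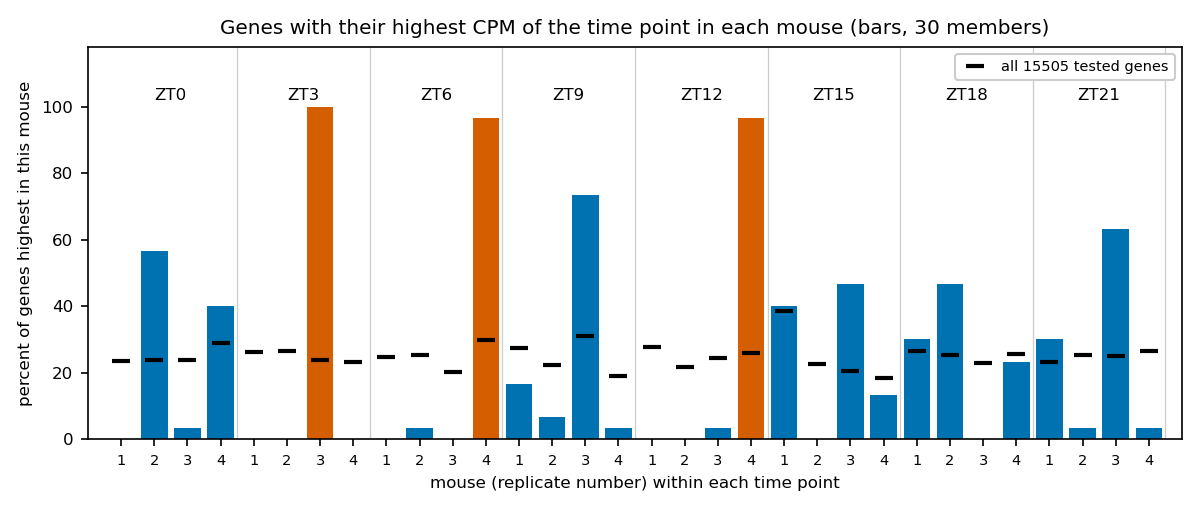
Percent of the 30 genes (bars) and of all 15505 tested genes (black dashes) that were highest in each mouse among the 4 of its Zeitgeber time. Horizontal positions are the 32 mice by Zeitgeber time and replicate number, and the orange bars, mouse 3 of ZT3, mouse 4 of ZT6 and mouse 4 of ZT12, reach 30, 29 and 29 of 30 genes while the dashes stay between 18.4% and 38.5%.

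In mouse 3 of ZT3 the median fold of the 30 genes over the other 3 mice was 1.68, with 1.74 for the effectors and 1.86 for the GTPases. Irf7, the factor that amplifies the type I response, was 24.4 CPM there and 10.9 to 13.0 CPM in the other 3 mice. Rtp4, a chaperone that limits several viruses, was 22.5 CPM against 6.88 to 8.34 CPM. Mx2 was 5.68 CPM against 1.63 to 2.17 CPM, and Isg15, a ubiquitin-like protein joined to newly made proteins, was 8.24 CPM against 2.78 to 3.53 CPM. In each of these 4 genes the level in this mouse was above that of all 3 others.

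In mouse 4 of ZT6 the median fold was 1.60, with 1.77 for the effectors and 1.55 for the GTPases. Ifit3, which works with Ifit1 on the ends of foreign RNA, was 36.8 CPM there and 8.52 to 12.5 CPM in the other mice, and Ifit1 was 15.3 CPM against 3.59 to 5.91 CPM. Isg15 was 11.0 CPM against 3.42 to 4.02 CPM. Usp18, the protease that removes ISG15 and quiets the type I receptor, was 12.3 CPM against 3.70 to 4.54 CPM. Rsad2 (viperin, which makes a chain-terminating nucleotide) was 71.4 CPM against 33.1 to 44.5 CPM, its highest library of the series, and its neighbour Cmpk2 was 24.2 CPM against 12.7 to 14.1 CPM. Irf1 was 43.3 CPM, inside the range of 40.7 to 48.3 CPM of the others.

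Mouse 4 of ZT12 was highest in the GTPases, with a median fold of 2.79, against 2.02 for the effectors and for all 30 genes. Iigp1, an immunity-related GTPase, was 142 CPM there and 19.4 to 25.8 CPM in the other mice, and Gbp2, a guanylate-binding protein, was 146 CPM against 37.7 to 45.4 CPM. Tap1 was 58.5 CPM against 21.8 to 22.4 CPM. Igtp, another immunity-related GTPase, was 85.3 CPM, and of the others 1 mouse gave 40.9 CPM and the remaining 2 gave 16.0 and 18.0 CPM. Rsad2 was 45.0 CPM, just under the 45.2 CPM of mouse 3 of that ZT.

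**Figure D4:**
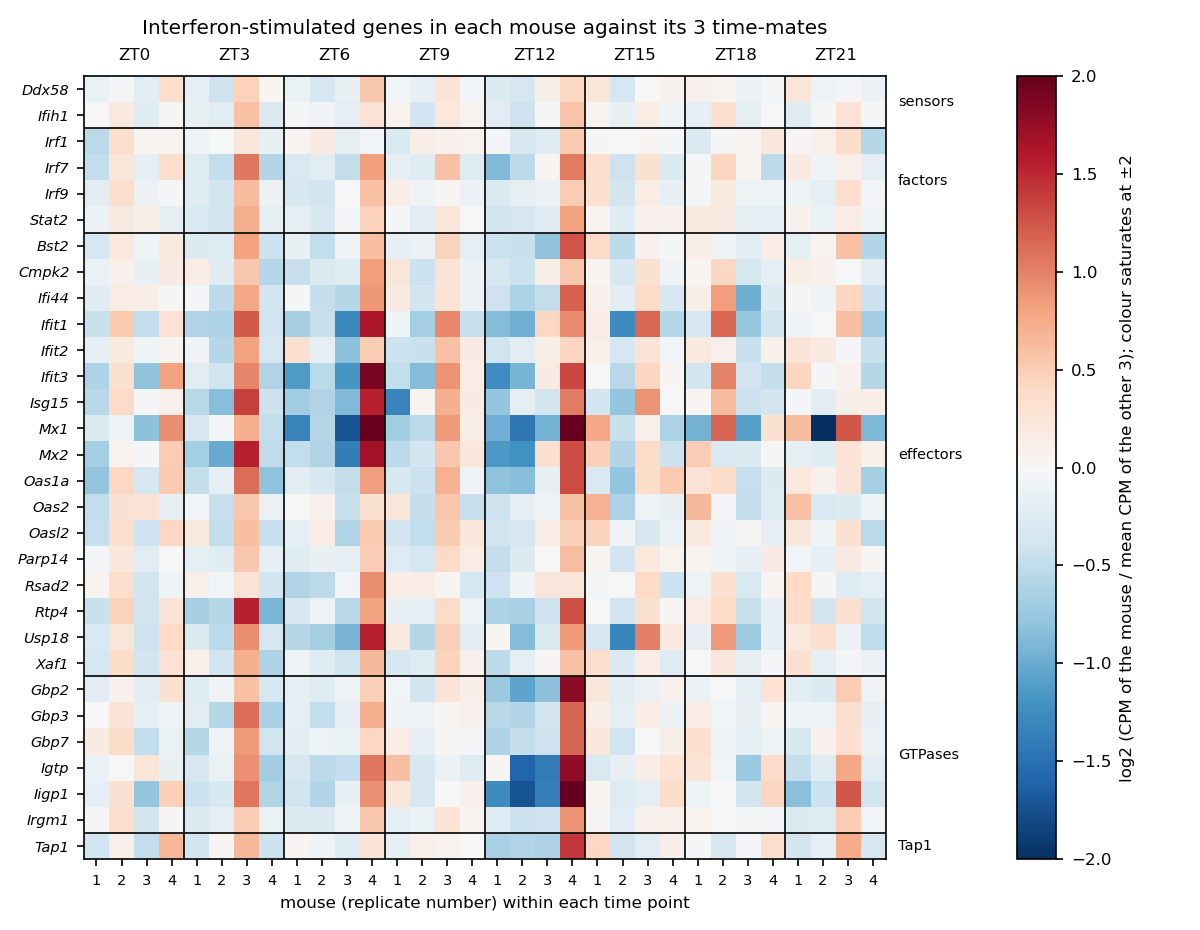
Level of each of the 30 genes (rows, grouped by role) in each of the 32 mice (columns, by Zeitgeber time and replicate number), as the log2 of its CPM over the mean CPM of the other 3 mice of that Zeitgeber time. Red columns run through nearly all rows in mouse 3 of ZT3, mouse 4 of ZT6 and mouse 4 of ZT12, whose median folds were 1.68, 1.60 and 2.02.

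Other mice stood apart less. Mouse 2 of ZT0 was the highest of 4 in 17 of 30 genes (23.7% of all genes) and above the mean of the others in 28, with a median fold of 1.24 for the effectors and 1.23 for the GTPases. Mouse 3 of ZT9 was the highest of 4 in 22 of 30 genes (31.2% of all genes), with a median fold of 1.45 for the effectors and 1.03 for the GTPases. Mouse 3 of ZT21 was the highest in 19 (24.9%), with 1.14 for the effectors and 1.42 for the GTPases, and its Iigp1 was 55.4 CPM against 19.8 to 25.5 CPM. Mouse 2 of ZT18 had 1.28 for the effectors and 1.00 for the GTPases, with Ifit3 at 26.3 CPM against 12.7 to 13.4 CPM and Gbp2 inside the range of the other mice, 45.2 to 58.1 CPM. At the low end, mouse 2 of ZT15 and mouse 3 of ZT18 were each the lowest of 4 in 24 of 30 genes (23.0% and 22.7% of all genes), with median folds of 0.785 and 0.860.

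**Figure D5:**
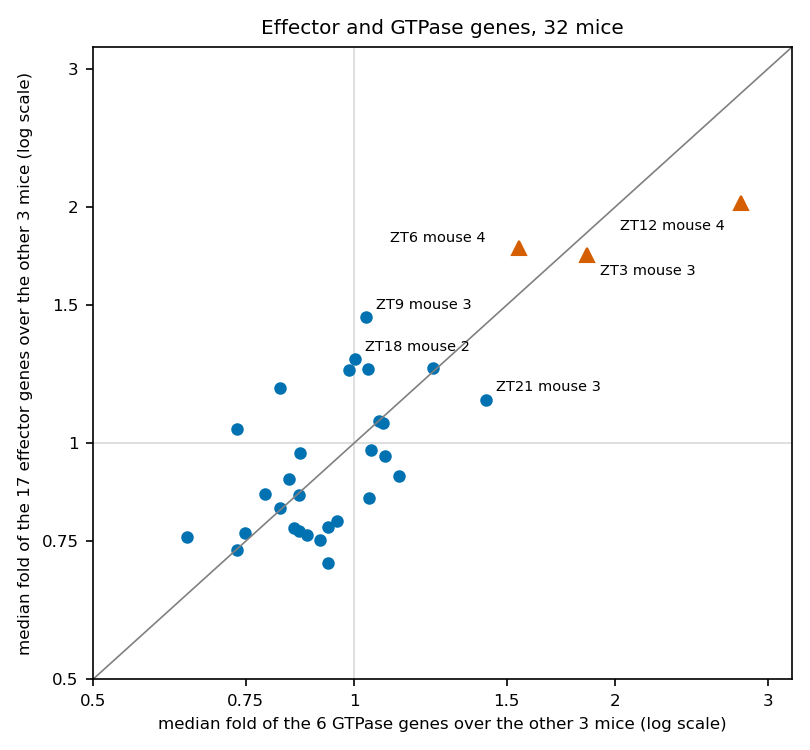
Median fold of the 17 effector genes (vertical axis) against that of the 6 GTPase genes (horizontal axis) in each of the 32 mice over the other 3 of its Zeitgeber time, both on log scales, with the line of equal folds. Triangles are mouse 3 of ZT3, mouse 4 of ZT6 and mouse 4 of ZT12. The last lies furthest below the line (2.79 for GTPases, 2.02 for effectors), and mouse 3 of ZT9 lies above it (1.03 and 1.45).

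Genes outside the set were examined in the same mice. Of 43 other interferon-stimulated genes tested, 38 were highest in mouse 3 of ZT3, 35 in mouse 4 of ZT6 and 39 in mouse 4 of ZT12, with median folds of 1.36, 1.29 and 1.32. Of 15 genes of the interferon receptors and their signalling, 4, 4 and 8 were highest, with median folds of 1.01, 0.983 and 1.11. Of 18 genes of the pathway that induces interferon, 10, 8 and 13 were highest, with median folds of 1.12, 1.06 and 1.21. Antigen presentation genes differed between these mice, since 13 of 16 were highest in mouse 3 of ZT3, 6 of 16 in mouse 4 of ZT6 and 16 of 16 in mouse 4 of ZT12, with median folds of 1.22, 1.01 and 1.79. Interferon transcripts themselves were nearly absent. Of 12 interferon genes, 9 had no count in any library, which allows up to 0.00539 CPM over all libraries (3 counts, counting error only), and Ifna4 and Ifnz had 1 count each. Ifng had 19 counts over 15 libraries, of which 1, 2 and 3 came from these mice, and 3 was the highest count of any library.

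Of 18 leukocyte markers, 11 were highest in mouse 4 of ZT12, with a median fold of 1.5 and a summed level of 120 CPM where its ZT-mates had 78.4 to 96.6 CPM. Among them Ptprc was 14.6 CPM against 5.88 to 6.19 CPM, Itgax 4.27 against 0.814 to 1.56 CPM, Nkg7 of cytotoxic lymphocytes 2.52 against 0.523 to 0.661 CPM and Cd8a 1.92 against 0.182 to 0.841 CPM, while Cd79a of B cells was the lowest of 4. Of genes looked up after their values were seen, Ms4a4b was 4.86-fold, Ccl5 3.69-fold, Il2rb 3.67-fold, Mki67 3.24-fold and Top2a 2.83-fold the level of the other mice. In mouse 3 of ZT3 5 of 18 were highest with a median fold of 1.15 (sum 123 CPM, other mice 82.6 to 140 CPM), and in mouse 4 of ZT6 6 of 18 with 1.10 (sum 83.7 CPM, other mice 75.7 to 116 CPM). The highest leukocyte sum of the series, 268 CPM, was in mouse 3 of ZT9. None of 8 muscle markers and none of 5 blood markers was highest in any of the mice with high interferon-stimulated genes, and the muscle sums were 5.92 CPM for mouse 3 of ZT3, 1.34 CPM for mouse 4 of ZT6 and 13.7 CPM for mouse 4 of ZT12. In mouse 4 of ZT6, 6 of 7 endothelial markers were highest with a median fold of 1.21, and 6 of 10 brown adipocyte markers with 1.24. In mouse 3 of ZT3 these counts were 1 of 7 (0.988) and 3 of 10 (1.04), and in mouse 4 of ZT12 they were 0 of 7 (0.977) and 1 of 10 (0.920). Of 6 stroma markers, 1 was highest in mouse 3 of ZT3, 1 in mouse 4 of ZT6 and 0 in mouse 4 of ZT12. The part of leukocyte, endothelial, brown adipocyte or muscle content in the levels of the 30 genes was not tested.

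The 30 genes moved together between mice. Over the 435 pairs, Pearson's r of the deviations from the ZT means over 32 mice averaged 0.669, from 0.0545 to 0.956, and all 435 were positive, while the mean over all pairs of tested genes was 0.000752. These values are a description, since all genes share the libraries. Pairs of GTPases averaged 0.837, pairs of effectors 0.70 and pairs of an effector and a GTPase 0.620. The closest pair was Gbp2 and Iigp1 at 0.956, followed by Oas1a and Rtp4 at 0.912, and Rsad2 and Irf1 were the least alike at 0.0545. Irf1 had the lowest mean r with the other 29 genes, 0.408, and Rtp4 the highest, 0.776. Without mouse 3 of ZT3, mouse 4 of ZT6 and mouse 4 of ZT12 the average was 0.395 with 414 of 435 pairs positive. It was then 0.516 within GTPases and 0.493 within effectors, and 0.263 between an effector and a GTPase. The SD between mice fell to a median of 0.25 for the 30 genes and stayed at 0.20 over all genes.

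Relations of 8 chosen pairs were tested by permuting mice within ZT (two-sided, 100000 permutations, Benjamini-Hochberg adjusted over the 8 pairs), and 5 passed with Pearson's r and 4 with Spearman's rho. Irf7 and Ifit1 gave r = 0.865 and rho = 0.821 (permutation p = 1e-05, the smallest these permutations can give, adjusted 8.0e-05), and r = 0.856 without the 2 mice farthest from the median of Irf7. Within lanes 2, 3 and 4 r was 0.923, 0.877 and 0.649. Irf7 and Isg15 gave r = 0.801 and rho = 0.674 (permutation p = 5e-05, adjusted 0.000133), 0.697 without those 2 mice, and 0.943, 0.670 and 0.659 within lanes. Stat2 and Irf9, the partners of the complex that binds the response element, gave r = 0.848 and rho = 0.768 (permutation p = 2e-05, adjusted 8.0e-05), 0.754 without 2 mice, and 0.928, 0.802 and 0.645 within lanes. Without mouse 3 of ZT3, mouse 4 of ZT6 and mouse 4 of ZT12, r was 0.803 for Irf7 and Ifit1 (permutation p = 0.00016), 0.564 for Irf7 and Isg15 (permutation p = 0.0174) and 0.623 for Stat2 and Irf9 (permutation p = 0.00126).

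The tested pairs with a GTPase all held Igtp, and the values are those of Igtp and not of the group. Igtp and Irgm1 gave r = 0.755 and rho = 0.607 (permutation p = 0.0013, adjusted 0.0026), 0.476 without the 2 farthest mice (permutation p = 0.0209), 0.738, 0.786 and 0.736 within lanes, and 0.314 without the 3 mice (permutation p = 0.11). Isg15 and Igtp, an effector of the type I response and a GTPase of the gamma response, gave r = 0.451 and rho = 0.343 (permutation p = 0.0286, adjusted 0.0458, and 0.137 for rho). Without the 2 farthest mice r was 0.207 (permutation p = 0.52), within lanes it was 0.884, 0.223 and 0.275, and without the 3 mice it was -0.196, so that the relation rests on those mice. Irf1 and Igtp missed the threshold, with r = 0.438 and rho = 0.262 (permutation p = 0.0459, adjusted 0.0525), 0.539 without the 2 mice farthest from the median of Irf1 (permutation p = 0.0521), 0.192 without the 3 mice (permutation p = 0.368), and 0.252, 0.691 and 0.284 within lanes.

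The remaining pairs set an interferon-stimulated gene beside Ptprc, the CD45 antigen of all leukocytes. Isg15 and Ptprc gave r = 0.262 and rho = 0.161 (permutation p = 0.208, adjusted 0.208), 0.308 without the 2 farthest mice, 0.0938 without the 3 mice and 0.153, 0.434 and -0.126 within lanes. Igtp and Ptprc gave r = 0.450 and rho = 0.308 (permutation p = 0.0383, adjusted 0.0511), 0.204 without the 2 farthest mice, 0.190 without the 3 mice and 0.177, 0.488 and 0.664 within lanes. Neither passed after adjustment.

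The genes outside the set whose deviations were most like those of the 30 genes were Ifit3b, Samhd1, Parp12, Irgm2, Gbp10, H2-T22, Zbp1, Trim30a, Uba7 and Gm4951, with mean r from 0.712 to 0.669. Without those 3 mice their mean r ran from 0.258 for Irgm2 to 0.503 for Samhd1. Ifit3b shares sequence with Ifit3, and Irgm2 overlaps Igtp on the same strand over 162 bases, so that reads of these stretches could be split or lost in counting. Samhd1 encodes an enzyme that depletes nucleotides, and Uba7 encodes the enzyme that activates ISG15. Over whole lists the median of the mean r was 0.582 for 43 other interferon-stimulated genes, 0.514 for 16 antigen presentation genes, 0.262 for 18 genes of the pathway that induces interferon, 0.261 for 7 endothelial markers, 0.226 for 18 leukocyte markers, 0.203 for 15 receptor and signalling genes, 0.106 for 6 stroma markers, 0.0460 for 5 blood markers, -0.134 for 10 brown adipocyte markers, -0.213 for 8 muscle markers and 0.0113 for all tested genes outside the set. Without mouse 3 of ZT3, mouse 4 of ZT6 and mouse 4 of ZT12 the medians were 0.329 for the other interferon-stimulated genes, 0.239 for antigen presentation, 0.189 for the induction pathway, 0.220 for endothelial, 0.188 for leukocyte and 0.233 for stroma markers, 0.175 for receptors and signalling, 0.187 for blood, -0.211 for brown adipocyte and 0.0520 for muscle markers, and 0.0186 for all genes outside the set. All 8 muscle markers had a negative mean r with these mice and a positive one without them.

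Genes of the pathway around the set were examined over ZT as well. The test over the 8 ZT called 5 of 15 receptor and signalling genes, 8 of 18 genes of the pathway that induces interferon and 10 of 43 other interferon-stimulated genes, against 39.8% of all genes. Whether these shares differ was not tested. A 24 h cosine called 5, 7 and 9 genes of these lists (36.1% of all genes). It called 2 of 16 antigen presentation genes and 6 of 18 leukocyte markers. With lane beside the cosine the counts were 1, 4, 5, 0 and 1 in that order (17.2% of all genes). The folds that follow lie between the extremes of 8 means, on different lanes, and are a description. Ifnar1, a subunit of the type I receptor, was highest at ZT9 and lowest at ZT18, with a fold of 1.38 between means (edgeR adjusted p = 0.00015). Irf3, which switches on interferon genes, was highest at ZT0 and lowest at ZT9 with a fold of 1.55 (edgeR adjusted p = 6.05e-05), and Mavs, the adaptor of the RNA sensors, was highest at ZT15 and lowest at ZT21 with a fold of 1.69 (edgeR adjusted p = 0.000328). Ifi203, a sensor of DNA, gave a fold of 1.75 between ZT0 and ZT9 (edgeR adjusted p = 9.19e-06). Among antigen presentation genes 2 of 16 were called, Psme1 with a fold of 1.31 between ZT12 and ZT0 (edgeR adjusted p = 0.0224) and Psmb10 with 1.45 between ZT12 and ZT21 (edgeR adjusted p = 0.0496). At ZT12, mouse 4 was the highest of its ZT in 16 of 16 of these genes, with a median fold of 1.79. Of 18 leukocyte markers 4 were called, led by Adgre1 with a fold of 5.68 between ZT9 and ZT0 (edgeR adjusted p = 0.00634), where mouse 3 of ZT9 alone reached 57.5 CPM.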

How the data were processed

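RNA of iBAT from 32 mice was sequenced by the study. Per the labels and the study's methods, the authors aligned reads to mm10 with GSNAP and counted them per Ensembl gene with HTSeq 0.6.1. The library kit kept the strand, and if reads were assigned by strand is not given in the sources used here. The deposited values are raw counts per gene and library, not normalized, and every column was used. The 30 genes and all lists were chosen with earlier results of these data known. Gene names and lengths came from GENCODE vM21, a later release than the Ensembl annotation the authors counted with. Genes passing edgeR's filterByExpr were scaled by TMM and tested with the quasi-likelihood test (edgeR 4.0.16, R 4.3.3) over all 8 ZT, as a 24 h cosine with and without lane, within lanes and between chosen ZT, with Benjamini-Hochberg adjustment over all tested genes and a threshold of 0.05. JTK_CYCLE was rewritten with periods of 21 and 24 h. log2 CPM used a prior count of 2. Relations used 100000 permutations within ZT. DESeq2 1.42.0, other scalings and filters, a replicate block and leaving out libraries were alternatives. Named genes were all 30, the leading genes of each list by p or level, and the 10 most alike genes. Code for the tests was checked on simulated data. The labels give separate mice but no separate extraction days, so p-values measure the spread between these samples. The lowest mean chi-square of the 48 same-ZT pairs of libraries was 7.63, so no library was a copy of another of its ZT. This value does not cover pairs of different ZT. Intervals and floors cover counting error only.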

Additional observations from a re-analysis of the deposited data

Results flagged for a closer look

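In each of 240 groups (30 genes at 8 ZT) the highest and the lowest of 4 mice were compared with the others by Dixon's ratio, and in 44 groups 1 mouse stood apart. The threshold would flag about 1 in 20 groups of normally distributed values, while the ratio was taken on CPM without a log transform. The share over all tested genes is not given, so that these groups cannot be called an excess. The genes share their mice, so that the groups are not independent. Values are CPM. Mouse 3 of ZT3 stood apart on the high side in Isg15 at 8.24, Ifit1 at 11.3, Ifih1 at 24.5, Mx2 at 5.68, Irf7 at 24.4, Stat2 at 50.5, Usp18 at 8.29, Bst2 at 38.2, Rtp4 at 22.5, Irgm1 at 29.8, Iigp1 at 58.4 and Parp14 at 57.8 CPM. Mouse 4 of ZT6 stood apart on the high side in Isg15 at 11.0, Ifit3 at 36.8, Oas1a at 2.62, Irf7 at 22.3, Usp18 at 12.3, Gbp2 at 57.6, Gbp7 at 38.6, Igtp at 38.0, Cmpk2 at 24.2 and Parp14 at 56.2 CPM. Mouse 2 of ZT18 stood apart on the high side in Ifit1 at 9.88 and Ifit3 at 26.3 CPM. Mouse 4 of ZT12 stood apart on the high side in Ifi44 at 4.38, Mx1 at 2.19, Stat2 at 49.2, Bst2 at 38.3, Rtp4 at 15.2, Gbp2 at 146, Gbp3 at 80.2, Gbp7 at 62.6, Irgm1 at 36.1, Iigp1 at 142 and Tap1 at 58.5 CPM. Mouse 1 of ZT9 stood apart on the low side in Irf1 at 38.7 CPM. Mouse 3 of ZT9 stood apart on the high side in Irf7 at 16.9, Bst2 at 22.7 and Rtp4 at 8.14 CPM. Mouse 2 of ZT15 stood apart on the low side in Stat2 at 35.8 CPM. Mouse 3 of ZT21 stood apart on the high side in Gbp3 at 37.5, Iigp1 at 55.4 and Tap1 at 38.9 CPM. Mouse 1 of ZT18 stood apart on the high side in Gbp7 at 36.1 CPM.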

How the results depend on the processing

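Counts are of the 30 genes called, with the share of all tested genes in parentheses. With library size alone the test over ZT called 1 (35.1%), the cosine beside lane 0 (14.9%) and JTK_CYCLE 2 (34.7%), and with no filter the cosine beside lane called 0 (6.8%) and ZT within lane 2 called 1 (Tap1, 5.83%). DESeq2 called 5 over ZT (45.2%) and 1 for ZT3 against ZT0 (15.2%), the fit of ZT0 and ZT12 alone called 1 (Oas2, 8.74%), and JTK_CYCLE called 3 after adjustment (27.1%). DESeq2 was not run within or beside lanes. Leaving out each library in turn gave 2 to 7 over ZT (7 without ZT12 mouse 4), 0 to 1 for ZT3 against ZT0 (1 without ZT0 mouse 4 or ZT12 mouse 4), 0 to 2 for ZT15 against ZT12 (2 without ZT12 mouse 4), 0 to 5 for ZT12 against ZT0 (0 without ZT0 mouse 2, ZT0 mouse 3 or ZT12 mouse 3, 1 without ZT12 mouse 1 or 2, which was Gbp2, 5 without ZT12 mouse 4), 4 to 6 for the cosine (6 without ZT6 mouse 4), 0 to 2 beside lane (2 without ZT9 mouse 1 or ZT12 mouse 4, 0 without any of 16 others, and Tap1 in place of Irf1 without ZT0 mouse 4 or ZT15 mouse 1), 0 to 1 within lane 2 (1 without ZT0 mouse 4), 0 to 1 within lane 3 (1 without ZT12 mouse 4), 3 to 5 for JTK_CYCLE, 4 to 7 of 8 relations and 0.602 to 0.685 for the mean pairwise r. Without ZT3 mouse 3, ZT6 mouse 4 and ZT12 mouse 4, an alternative chosen after seeing the data, the counts were 6 over ZT (34.2%), 1 for ZT3 against ZT0 (8.46%), 2 for ZT15 against ZT12 (2.57%), 6 for ZT12 against ZT0 (12.6%), 8 for the cosine (31.6%), 3 beside lane (15.2%), 2 within lane 2 (7.02%), 1 within lane 3 (1.45%), 6 for JTK_CYCLE (33.9%) and 3 relations, and the mean pairwise r was 0.395. Within lanes 2, 3 and 4 the relations that passed were 3, 1 and 0, and the mean pairwise r was 0.363 in lane 4. The relation of Isg15 and Ptprc turned to -0.126 within lane 4, and that of Isg15 and Igtp to -0.196 without those 3 libraries, while leaving out single libraries kept it positive, up to 0.598. The cause of these changes was not tested.

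The replicate numbers did not pair the mice. Same-numbered mice of different ZT had a mean correlation of -0.0333 over 112 pairs, and 4 of 32 libraries correlated best with their own number. A replicate block gave 2 calls for the cosine beside lane (Irf1 and Tap1) and left the counts at 3 over ZT, 4 for the cosine and 2 for ZT12 against ZT0.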
